A study of Homo sapiens with 3 samples.

Results

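SNHG genes are long noncoding genes that carry small nucleolar RNAs (snoRNAs) in their introns, and 10 of them, SNHG1, SNHG5, SNHG6, SNHG7, SNHG8, SNHG12, SNHG15, SNHG16, GAS5 and ZFAS1, were followed here among the 61806 genes of the table. The genes were picked by symbol, and they were selected on a gene class for which fold changes in these same libraries were already known. The count, FPKM and fold change of each gene are therefore given as a description, with no p-value printed for a member. Calls at a threshold are named as part of that description, and nothing is read from how many members were called. RNA was sequenced from 3 libraries labelled KG1, a human acute myeloid leukemia (AML) line, to ask what lowering UCP2, a carrier protein of the inner mitochondrial membrane, does to these cells. The control library, labelled NC, came from cells given a control lentivirus, which the labels call a vector control and the methods of the study a scrambled shRNA, and the others came from cells given a lentiviral shRNA against UCP2, shUCP2#2 in one and shUCP2#3 in the other. Transduced cells of every library were sorted by flow cytometry at 72 h and expanded in 20% serum. There was 1 library per construct, and nothing states that the shUCP2 libraries stand for separate cultures beyond their hairpins, so the spread between them may be partly technical.

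When an SNHG transcript is spliced, its introns are trimmed to release snoRNAs, which guide methylation or pseudouridylation of ribosomal and spliceosomal RNA. The spliced exons are exported, read by ribosomes over short reading frames, and in several of these genes cleared by nonsense-mediated decay (NMD), the surveillance pathway that removes RNAs with an early stop codon. Several of them, GAS5 among them, belong to the TOP class, whose transcripts begin with a run of pyrimidines and are tied to the growth state of the cell.

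The start regions of 8 members are shown because the pyrimidine run of a TOP transcript lies at the start site. They were taken from the RefSeq promoter table on GRCh38.p14, and each runs 5′ to 3′ on the strand of the gene from 40 bases before the annotated start to the 25th base of the transcript. Capitals mark the longest run of at least 5 C or T bases that overlaps the 5 bases on either side of the start, and the letters TATAA where they lie between 40 and 16 bases before it. The windows are chr11:62855861-62855925 for SNHG1, chr6:85678709-85678773 for SNHG5, chr9:136728160-136728224 for SNHG7, chr4:118278722-118278786 for SNHG8, chr1:28581849-28581913 for SNHG12, chr17:76557724-76557788 for SNHG16, chr1:173869021-173869085 for GAS5 and chr20:49278602-49278666 for ZFAS1, with SNHG8, SNHG16 and ZFAS1 on the plus strand and the others on the minus strand.
SNHG1: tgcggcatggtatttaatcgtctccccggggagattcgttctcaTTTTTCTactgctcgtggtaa
SNHG5: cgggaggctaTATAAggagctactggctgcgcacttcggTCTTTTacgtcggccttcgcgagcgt
SNHG7: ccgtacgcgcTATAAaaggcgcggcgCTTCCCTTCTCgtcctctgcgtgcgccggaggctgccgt
SNHG8: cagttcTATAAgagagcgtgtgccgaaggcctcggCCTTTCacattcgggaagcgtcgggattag
SNHG12: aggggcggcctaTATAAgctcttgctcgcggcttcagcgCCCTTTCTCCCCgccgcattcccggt
SNHG16: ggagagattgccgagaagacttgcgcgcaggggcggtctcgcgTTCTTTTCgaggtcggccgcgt
ZFAS1: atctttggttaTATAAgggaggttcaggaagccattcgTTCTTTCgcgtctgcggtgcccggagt
GAS5: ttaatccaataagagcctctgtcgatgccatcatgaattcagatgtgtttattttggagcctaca

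A pyrimidine run was found at or near the start of 7 of the 8 promoters, GAS5 being the exception, against 35.7% of the 35116 RefSeq promoters of the same length. The marked run, being the longest, did not always cover the start. It ended before the start in SNHG7, and it began at base 5 of the transcript in SNHG1 and base 4 in SNHG16. In SNHG1 and SNHG7 a shorter run of at least 5 C or T bases, left unmarked, does cover the start. The RefSeq start lies 163 bases from the start of the gene in the deposited table for GAS5, 199 for SNHG5, 464 for ZFAS1 and 1259 for SNHG12. For the others it lies at most 68 bases away, so the start read here was often not that of the table. The GAS5 window lies wholly upstream of the gene as counted, so the start of the counted gene was not read. TATAA was read on the strand of the gene in SNHG5, SNHG7, SNHG8, SNHG12 and ZFAS1, 5 of 8, against 3.91% of all promoters. The promoters with TATAA include genes whose RNA was higher in the shUCP2 libraries (SNHG5, SNHG8, ZFAS1) and genes whose RNA hardly moved (SNHG7, SNHG12). The E-box letters CACGTG, which read the same on both strands, were found within the 300-base promoter of SNHG7 alone, 1 of 8, against 7.26% of all promoters, and TGATGCAA on either strand was found in 0 of 8, against 0.866%. A match in letters is a description of the sequence and does not show that a factor binds there.

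The libraries held 18375090 (control), 16475165 (shUCP2#2) and 17562153 (shUCP2#3) counts, and 15232 genes passed the filter on low counts, all 10 members among them. The targeted transcript was not lower in the libraries labelled shUCP2: UCP2 had 651, 608 and 649 counts, with a fitted log2 difference of 0.06 (SE 0.15) at an edgeR adjusted p of 0.888, so the libraries are named here by their labels. Of the markers read, 6 of 8 erythroid genes and 2 of 8 progenitor or myeloid genes reached 10 CPM (counts scaled to library size) in all libraries. HLA-DRA, CD38 and MPO were at 0 in every library, and CD34 had 0, 10 and 0 counts, although KG1 is described as a myeloid line. The fibroblast collagen gene COL1A1 had 0, 507 and 0 counts, so that library shUCP2#2 held collagen reads that shUCP2#3 did not. In shUCP2#3, COL1A1, COL1A2 and COL3A1 had 0, 3 and 1 counts. Whether the collagen reads bear on the levels of the members was not tested.

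Gene calls were made by edgeR at an adjusted p under 0.05 over all tested genes, comparing the control with both shUCP2 libraries. SNHG1, SNHG5, SNHG8, GAS5 and ZFAS1 were called higher, 5 of the 10 members, and none was called lower. Over all tested genes, 6.25% were called higher, 6.11% lower and 12.4% in either direction. Because the genes were selected with this contrast known, nothing is read from the members' count. The median log2 fold change of the members was 0.15, beside 0.02 over all tested genes, and without SNHG1 it was 0.05. SNHG1 had the largest fold change of the 10. The calls depended on the tool: DESeq2 called SNHG1, GAS5 and ZFAS1. With limma on log2(FPKM + 1), 0 members were called and 5 lay at an unadjusted p under 0.05, as did 2291 of 10937 tested genes. With edgeR without the abundance trend, 0 were called and 1 lay under that threshold, as did 1770 of 15232 tested genes. Nothing is read from these member counts either.

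SNHG1, the host of a series of box C/D snoRNAs on chromosome 11 (GRCh38, 62851978 to 62855953, minus strand), moved most. Its RNA had 3475 counts in the control, 8368 in shUCP2#2 and 8824 in shUCP2#3. In CPM this was 189 in the control and 506 ± 7.33 (SD, n = 2) in the shUCP2 libraries. Both shUCP2 libraries lay far above the control and close to one another. The log2 fold change was 1.42 (SE 0.09), a 2.67-fold higher level. The ratio to the control was 2.70 (95% exact binomial interval 2.59 to 2.81) for shUCP2#2 and 2.64 (2.54 to 2.75) for shUCP2#3, intervals that cover counting error only. Among the 3947 tested genes whose FPKM averaged 10 or more, SNHG1 ranked 6 from the top by fold change.

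**Figure D1:**
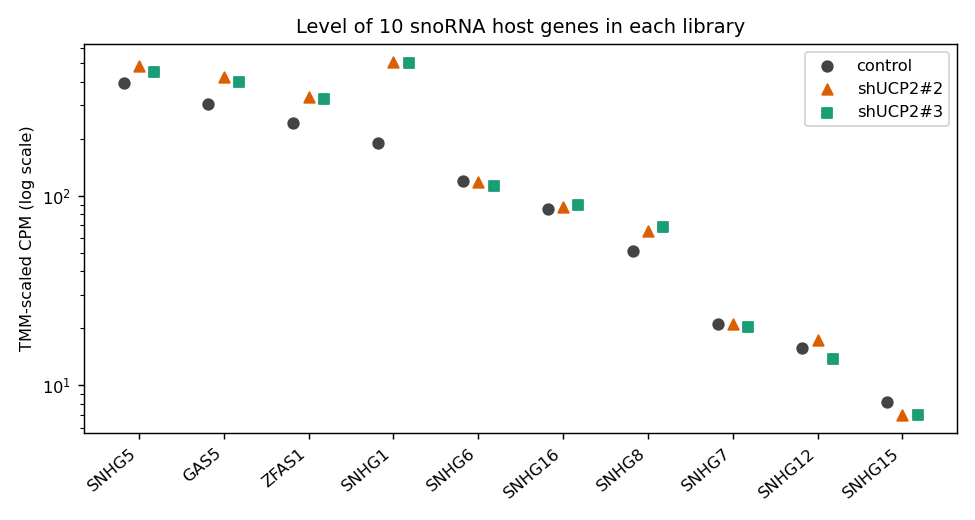
Level of each of the 10 host genes in the control, shUCP2#2 and shUCP2#3 libraries, 1 point per library, in CPM on a log axis. The SNHG1 points go from 189 in the control to 511 and 500 in the shUCP2 libraries, whereas SNHG12 has its shUCP2 points on either side of the control (15.8, 17.5 and 13.8) and SNHG15 has both below it (8.18, 6.96 and 6.97).

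GAS5 and ZFAS1 came next. GAS5, a growth-arrest gene whose introns hold many box C/D snoRNAs (chromosome 1, 173858559 to 173868882, minus strand), had 5629, 6935 and 7006 counts in the order control, shUCP2#2, shUCP2#3, or 307 CPM against 410 ± 18.4 (SD, n = 2). Both shUCP2 libraries were above the control, at ratios of 1.38 (1.33 to 1.43) and 1.29 (1.25 to 1.34). Its log2 fold change was 0.42 (SE 0.09). ZFAS1, which lies at the start of the zinc finger gene ZNFX1 in antisense orientation and hosts the SNORD12 snoRNAs (chromosome 20, 49278178 to 49299600, plus strand), had 4469, 5431 and 5718 counts. This was 244 CPM in the control and 328 ± 5.12 (SD, n = 2) in the shUCP2 libraries, and the fitted log2 difference was 0.43 (SE 0.09). The ZFAS1 ratio to the control was 1.36 (1.31 to 1.42) for shUCP2#2 and 1.33 (1.28 to 1.38) for shUCP2#3. GAS5 and ZFAS1 shifted by nearly the same amount, and for each the control lay below both shUCP2 libraries.

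SNHG8 and SNHG5 made up the remaining called members. SNHG8, a host of 1 box H/ACA snoRNA (chromosome 4, 118278703 to 118285316, plus strand), had 937, 1069 and 1204 counts, and its level went from 51.1 CPM to 66.8 ± 2.14 (SD, n = 2). The fitted log2 difference was 0.39 (SE 0.13), with ratios of 1.28 (1.17 to 1.40) and 1.34 (1.23 to 1.46). Both shUCP2 libraries lay above the control, as in the genes above. This does not set the called members apart, since SNHG6, SNHG7, SNHG15 and SNHG16, not called, also had both hairpins on the same side of the control. SNHG5 (chromosome 6, 85650491 to 85678932, minus strand), the member with the most counts in the control, had 7251, 7938 and 7972 counts, 395 CPM against 468 ± 22.9 (SD, n = 2). It differed by 0.24 on the log2 scale (SE 0.08), at ratios of 1.23 (1.19 to 1.27) and 1.14 (1.11 to 1.18). The SNHG5 shift was the smallest among the called genes. Its call was lost in the fit without a filter on low counts.

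The other members were not called. SNHG6 (chromosome 8, 66920561 to 66926398, minus strand) had 2207, 1951 and 1987 counts, 120 CPM in the control and 116 ± 4.53 (SD, n = 2) in the shUCP2 libraries, −0.05 on the log2 scale (SE 0.10). SNHG16 (chromosome 17, 76557727 to 76670985, plus strand) had 1558, 1429 and 1570 counts, 84.9 CPM against 88.1 ± 1.28 (SD, n = 2), 0.05 on the log2 scale (SE 0.11). SNHG7 (chromosome 9, 136721366 to 136728184, minus strand), at 388, 345 and 359 counts or 21.2 CPM against 20.7 ± 0.495 (SD, n = 2), gave −0.03 (SE 0.19). For these genes the control lay within 1 SE of the shUCP2 level. SNHG15 (chromosome 7, 44983019 to 44986961, minus strand) had 150, 114 and 123 counts and a log2 fold change of −0.23 (SE 0.31), with both hairpins at about 0.85 of the control and counting intervals that reach 1.09. SNHG12 (chromosome 1, 28578538 to 28583132, minus strand) was the single member whose hairpins fell on opposite sides of the control: it had 289, 286 and 244 counts and per-hairpin log2 differences of 0.15 for shUCP2#2 and −0.19 for shUCP2#3, with a fitted value of −0.01 (SE 0.22). At this depth a difference of the size seen for SNHG5 could not have been told from 0 in SNHG7, SNHG12 or SNHG15, whose SE is close to it or larger. For SNHG6 and SNHG16 a call at that size was not assured either, as their SE (0.10 and 0.11) is above that of SNHG5 (0.08).

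**Figure D2:**
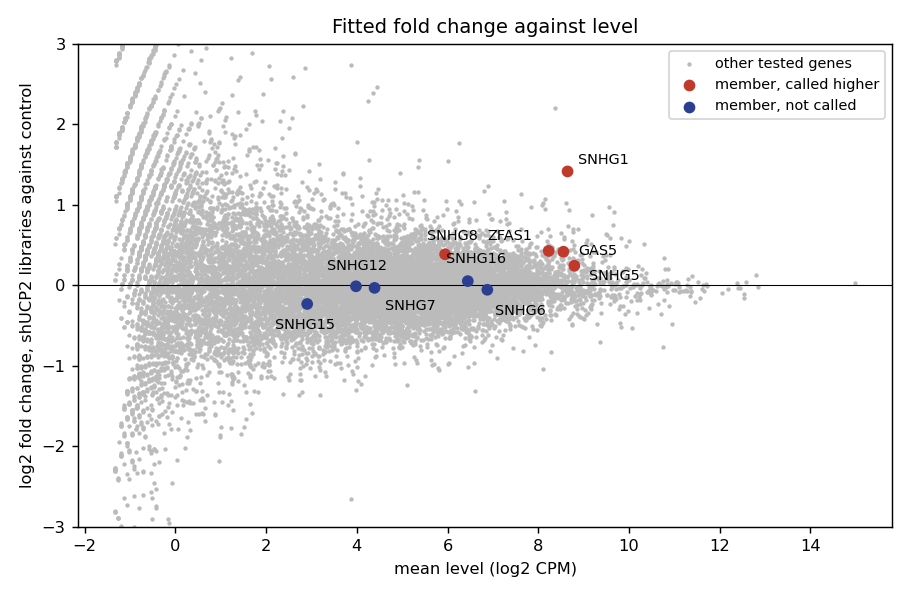
Log2 fold change (shUCP2 against control) of every tested gene against its mean level, with the 10 host genes named; 226 genes beyond 3 on the vertical axis are not drawn. SNHG1 sits at 1.42, GAS5, ZFAS1 and SNHG8 between 0.39 and 0.43, and SNHG5 at 0.24, while the members not called lie between −0.23 (SNHG15) and 0.05 (SNHG16).

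The shUCP2 libraries were alike across the family. The median absolute log2 difference between shUCP2#3 and shUCP2#2 was 0.06 over the members, beside 0.18 over all tested genes, which include many genes of low count. SNHG12 differed most, at −0.33, with a ratio of 0.793 (0.665 to 0.944). For SNHG5 the ratio was 0.933 (0.904 to 0.963) and for GAS5 0.939 (0.908 to 0.970), so both were slightly lower in shUCP2#3 beyond counting error, whereas the intervals of SNHG1, SNHG8 and ZFAS1 included 1. With 1 library for each hairpin these ratios have no replicate check.

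As one pool, the members took 0.143% of all counts in the control (Wilson 95% interval 0.142 to 0.145). The share was larger with either hairpin, 0.206% for shUCP2#2 (0.203 to 0.208) and 0.199% for shUCP2#3 (0.197 to 0.201). SNHG1 alone went from 13.2% of the pool (12.8 to 13.6) to 24.7% (24.3 to 25.2) and 25.2% (24.8 to 25.7). Much of the wider pool was thus SNHG1. Without it the pool still took a larger share of the shUCP2 libraries, with 0.1245% in the control, 0.155% in shUCP2#2 and 0.149% in shUCP2#3. In the same libraries the share of SNHG5 within the pool went from 27.5% to 23.4% and 22.8%, although its own level was higher.

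**Figure D3:**
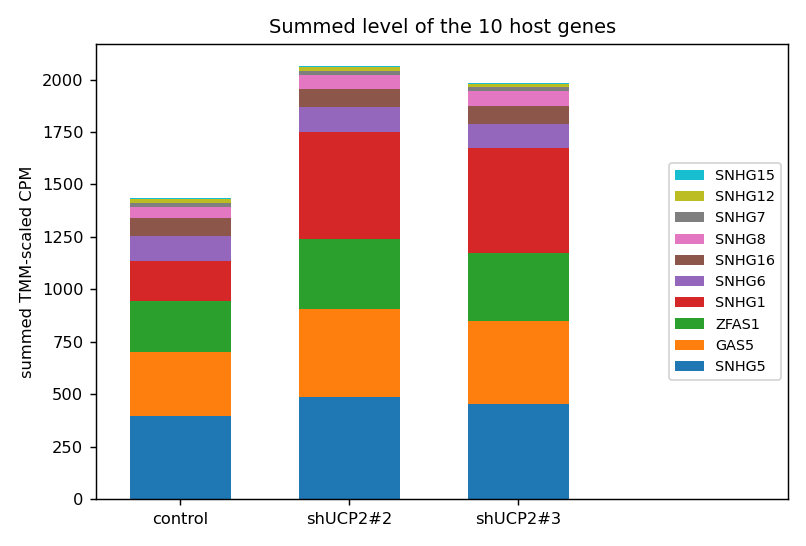
Summed level of the 10 host genes in CPM, stacked by gene, for each of the 3 libraries. The stacks reach 1437 in the control, 2067 in shUCP2#2 and 1985 in shUCP2#3, and the SNHG1 layer widens most.

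Levels between genes were compared per length, as FPKM, which the authors computed over exonic gene size. In the control the order was GAS5 (62.1), SNHG1 (47.56), SNHG6 (47.53), SNHG5 (31.3), ZFAS1 (29.3), SNHG16 (14.7), SNHG8 (7.71), SNHG7 (4.32), SNHG12 (3.69) and SNHG15 (2.07). SNHG1 and SNHG6 could not be ranked against each other in that library. In both shUCP2 libraries SNHG1 was first, at 127 ± 0.976 FPKM (SD, n = 2), followed by GAS5 at 83.1 ± 3.15 and SNHG6 at 45.8 ± 1.48. ZFAS1 (39.4 ± 0.339) came before SNHG5 (37.1 ± 1.57), and these neighbours were separated by less than 2 SD of SNHG5. Farther down, SNHG7 (4.23 ± 0.0707) and SNHG12 (3.67 ± 0.573) did not differ beyond the spread of SNHG12. From the control to the shUCP2 libraries, SNHG1 and GAS5 exchanged places, and so did SNHG5 and ZFAS1.

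The order depends on what is counted as the length of a host gene. For SNHG1, SNHG8 and SNHG15 the exonic size in the table equals the whole span of the gene (3976 bases for SNHG1), so reads from introns count as exonic and the divisor is long. For SNHG16 the exonic size is 5.1% of the span. In GENCODE 29, 13 of the 25 SNHG1 transcripts and 19 of the 29 GAS5 transcripts are annotated as retaining an intron, and the spliced SNHG1 transcripts have a median length of 767 bases. CPM per kilobase of that spliced length put SNHG5 first in the control (616), then GAS5 (512), ZFAS1 (366) and SNHG1 (247). On this scale SNHG1 stood behind SNHG5, GAS5 and ZFAS1 in the control and behind SNHG5 and GAS5 alone in both shUCP2 libraries (662 and 655). The fold change of a gene between libraries does not depend on the length chosen.

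The snoRNAs inside the hosts are shown because their entries, unlike those of the hosts, had almost no counts here. The sequences are GENCODE 29 transcripts on GRCh38, with the box letters TGATGA (C box) and CTGA (D box) in capitals, taking the first TGATGA where it starts in the first 20 bases and the last CTGA where it starts in the last 20. SNORD25 (chr11:62855564-62855632), SNORD27 (chr11:62855012-62855083) and SNORD30 (chr11:62853663-62853732) lie in SNHG1 on the minus strand, and SNORD12B (chr20:49280319-49280409) lies in ZFAS1 on the plus strand.
SNORD25: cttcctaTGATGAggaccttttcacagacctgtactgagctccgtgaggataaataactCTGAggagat
SNORD27: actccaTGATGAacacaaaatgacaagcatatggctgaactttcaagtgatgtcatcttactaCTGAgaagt
SNORD30: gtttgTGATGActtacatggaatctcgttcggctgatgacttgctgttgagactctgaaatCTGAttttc
SNORD12B: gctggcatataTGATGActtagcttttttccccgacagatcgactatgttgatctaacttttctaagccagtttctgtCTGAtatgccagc

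A list of 36 snoRNA names was looked up by symbol, and the position of each entry was then checked. This gave 25 entries inside 9 of the hosts, 7 of them in SNHG1, and none inside GAS5. For 14 of the names no entry was found inside the host, and snoRNAs under other names or without a symbol were not searched. Together the 25 entries had 2 counts in the control, 6 in shUCP2#2 and 0 in shUCP2#3. The reads came from SNORD12B in ZFAS1 (1, 6 and 0 counts) and SNORD99 in SNHG12 (1, 0 and 0 counts). The snoRNAs of SNHG1 had no count in any library, while SNHG1 itself had at least 3475. Under the floor of 3 counts, a snoRNA at 0 could have had up to 0.163, 0.182 and 0.171 CPM of assigned reads in the 3 libraries. This is no ceiling on the snoRNA itself. All 7 entries in SNHG1 touch a host exon, and how reads that fit both genes were assigned is not given. Of the 528 entries named SNORA or SNORD in the whole table, 68 had any count and 8 had 10 or more in a library, so snoRNAs as a class were hardly measured. Of the 25 hosted entries, 21 touch an annotated exon of the host, where a read fits both genes, and the host counts therefore say nothing on how much snoRNA was released.

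Tested genes that overlap a member, and the nearest tested gene on each side at any distance, were read next as neighbours. The gap reached 3600477 bases, between UGT8 and SNHG8. Of the 28 tested neighbours, 1 was called higher and 3 lower, 3.57% and 10.7%, beside 6.25% and 6.11% of all tested genes. SLC3A2, an amino acid transporter subunit that starts 50 bases from SNHG1 on the opposite strand, had 3880, 3679 and 3805 counts, 0.06 on the log2 scale (SE 0.09, edgeR adjusted p = 0.79). WDR74, a ribosome assembly factor on the other side, fell from 712 counts to 415 and 422 (−0.66 on the log2 scale, SE 0.16, edgeR adjusted p = 0.00083). Neither tested neighbour of SNHG1 was called higher.

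ZBTB37, on the opposite strand, overlaps GAS5 by 801 bases and had 298, 399 and 388 counts, a log2 fold change of 0.51 (SE 0.19) that was not called, and GAS5-AS1 had 20, 14 and 9 counts. ZFAS1 overlaps ZNFX1 by 249 bases, and ZNFX1 had 389, 390 and 406 counts (0.14, SE 0.18). The helicase gene DDX27, 34100 bases from ZFAS1, fell (−0.48, SE 0.12, edgeR adjusted p = 0.00145). The kinase gene SGK3, 58538 bases from SNHG6, rose (1.11, SE 0.35, edgeR adjusted p = 0.0188), whereas SNHG6 gave −0.05. The tested neighbours CENPL, SERPINC1, B4GALT5, SYNCRIP, CGA, TCF24, DIPK1B, AGPAT2, LCN15, UGT8, CEP170P1, TRNAU1AP, TAF12, PURB, CCM2, ST6GALNAC1 and 4 entries without a symbol were not called. Whether the counting used strand is not stated, and where genes overlap on opposite strands their reads cannot be told apart.

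Other snoRNA hosts were then read. Of 16 tested noncoding hosts outside the members, 1 was called higher and none lower, with a median log2 fold change of 0.04. The share called higher was 6.25%, the same as over all tested genes (6.25% higher and 6.11% lower). SNHG32 rose, with 6320, 7981 and 8552 counts (0.50, SE 0.08, edgeR adjusted p = 3.253e-07), close in size to GAS5 and ZFAS1. SNHG9 (1.02, SE 1.47), SNHG30 (−0.57, SE 0.22) and SNHG21 (−0.56, SE 0.80) were not called. Of 40 protein-coding hosts, 1 was called higher and 6 lower, 2.5% and 15.0%, with a median of −0.02. Over all tested genes whose FPKM averaged 10 or more the shares were 10.9% and 13.5%. HSPA9, the mitochondrial HSP70, rose (0.55, SE 0.07, edgeR adjusted p = 1.565e-11), whereas the box C/D core protein NOP56 (−0.55, SE 0.10), the chaperone HSPA8 (−0.48, SE 0.06) and the nucleolar protein NCL (−0.28, SE 0.07) fell. Nothing is read from the number of calls in either list.

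Of 17 proteins that build snoRNA particles, none was called higher and 7 were called lower, 41.2%. The share called lower was 6.11% over all tested genes and 13.5% over those whose FPKM averaged 10 or more. Most genes of the list, though not all, were at that level. The median log2 fold change of the list was −0.32, and every value lay below 0. RUVBL2 (−0.70, SE 0.10, edgeR adjusted p = 1.655e-09), an assembly ATPase, SHQ1 (−0.57, SE 0.18, edgeR adjusted p = 0.0186), an H/ACA assembly factor, and NHP2 (−0.54, SE 0.13, edgeR adjusted p = 7.27e-04), an H/ACA core protein, fell, as did NOP56.

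NMD factors, which act on the spliced host RNA, were called lower in 4 of 20 (20.0%) and higher in none, with a median of −0.11. The share called lower was 6.11% over all tested genes and 13.5% over those whose FPKM averaged 10 or more. The factors called lower were UPF3A (−0.44, SE 0.13), RNPS1 (−0.39, SE 0.09), EIF4A3 (−0.37, SE 0.11) and RBM8A (−0.35, SE 0.11). They are a UPF3 paralog and parts of the exon junction complex or its partners. Of 12 other genes with transcripts known as NMD targets, 1 was called higher, GABARAPL1 (0.44, SE 0.16), and the median was −0.15. The 3 called lower were TRA2A (−0.64, SE 0.15), BAG1 (−0.45, SE 0.13) and HNRNPDL (−0.35, SE 0.09). Counts are per gene, so transcripts cleared by NMD were not measured apart from the others of the same gene. For comparison, 6.25% of all tested genes were called higher and 6.11% lower. Among those whose FPKM averaged 10 or more the shares were 10.9% and 13.5%. With only 12 other NMD targets, nothing is read from the number or direction of their calls.

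Long noncoding RNAs that host no snoRNA were a further comparison. Of 9 such genes, 4 were called higher and none lower, with a median of 0.28. MALAT1, a nuclear RNA, rose (1.02, SE 0.28, edgeR adjusted p = 0.00432), but unevenly, with 120, 296 and 152 counts, and NORAD (0.31, SE 0.08) and OIP5-AS1 (0.28, SE 0.08) rose by less, whereas MIR17HG (−0.25) was not called. Among all 68 tested long noncoding genes whose FPKM averaged 10 or more, 23.5% were called higher and 2.94% lower, with a median of 0.15. Over all 1893 tested long noncoding genes, most of them at lower levels, 2.69% were called higher and 0.158% lower, with a median of 0.22. For all 3947 tested genes with an average FPKM of 10 or more the shares were 10.9% and 13.5%, with a median of −0.02. The 6 members at that level, 4 of them called higher, are among these sets, and no difference between the sets was tested.

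**Figure D4:**
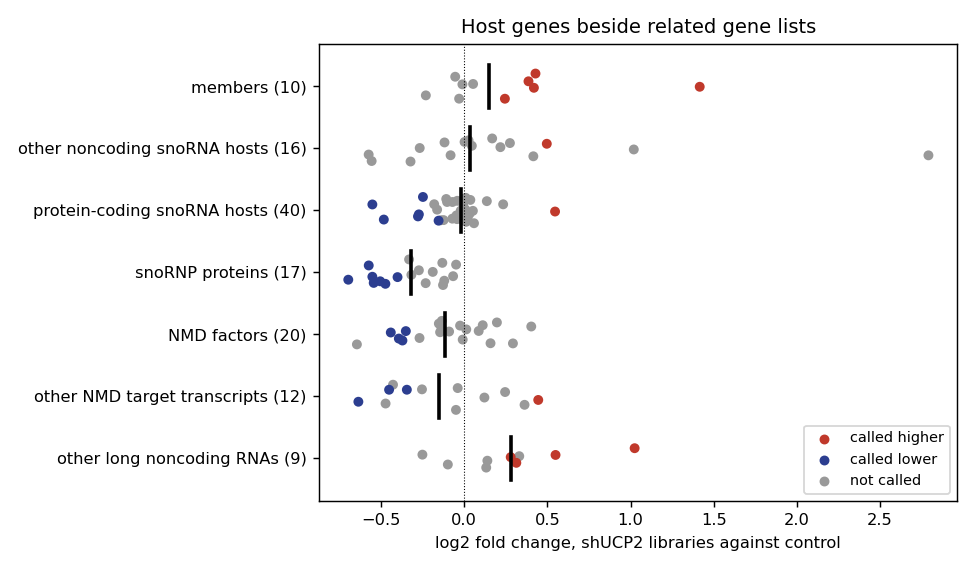
Log2 fold change (shUCP2 against control) of the genes of each list, 1 point per tested gene, with the median of each list as a bar and called genes in red (higher) or blue (lower). SNHG14, at 2.79 among the other noncoding hosts, was fitted on 1, 12 and 2 counts. SNHG1 stands above the other members at 1.42, and every snoRNA particle protein lies below 0.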

How the data were processed

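RNA of 3 libraries labelled KG1 was analysed. The labels name total RNA as the molecule but a DNA kit for extraction, and the table was read as RNA sequencing. The authors deposited raw read counts per gene and, beside them, FPKM, which equalled count divided by exonic gene size and library total in all genes (tolerance 0.0051). Tools named in the submitters' processing notes are HISAT2 2.2.1, HTSeq 0.6.1, cutadapt 1.9.1, Cufflinks 2.2.1, SAMtools 0.1.19 and DESeq2, on GRCh38. Annotation release and strand setting: not given in the sources used here. No per-sample column was left unused.

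The test was edgeR 4.0.16 in R 4.3.3 (quasi-likelihood F test, two-sided, after filterByExpr and TMM) on 1 control and 2 shUCP2 libraries, with Benjamini-Hochberg adjustment at 0.05 over 15232 genes. With a single control, its variation was taken from that between the shUCP2 libraries, with 1 residual degree of freedom. CPM of members used TMM-scaled library sizes, and fold changes per hairpin used a prior count of 2. Ratios carry exact binomial intervals and shares Wilson intervals, at 95%, for counting error only. The members and lists were chosen with earlier results of these data known. Named genes were all members, UCP2, every tested neighbour (apart from a gene not reported here), and up to 4 genes per list whose FPKM averaged 1 or more, called genes first and then by size of fold change. The fit was tested on simulated data of the same design, with the spread set to that of the fit. It recovered 41.1% of 1.5-fold, 53.9% of 2-fold and 80.4% of 4-fold changes, and on average 3.23% of calls were false. Many changes of the size seen in most members would thus be missed. Alternatives were other scalings and filters, DESeq2 1.42.0, limma 3.58.1 on log2(FPKM + pseudocount), edgeR without the abundance trend, and leaving out each shUCP2 library. RefSeq promoters matched 8 of 10 members; SNHG6 and SNHG15 were not matched.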

Additional observations from a re-analysis of the deposited data

How the results depend on the processing

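Against 1883 genes called, DESeq2 called 623, limma on log2(FPKM + pseudocount) called 2, 1 and 24 with pseudocounts of 1, 0.1 and 5, and edgeR without the abundance trend called 0, with 1770 genes at an unadjusted p under 0.05. Of the 5 members called, DESeq2 kept 3 (SNHG1, GAS5 and ZFAS1), and limma called 0, 0 and 1 (SNHG1) with those pseudocounts. In limma 5 members lay at an unadjusted p under 0.05 each time, beside 2291, 2306 and 2266 of 10937 tested genes. Without the trend, edgeR called 0 members, with 1 at an unadjusted p under 0.05. The fit without a filter on low counts called 4, without SNHG5. With 1 residual degree of freedom, the edgeR calls rest on a spread shared across genes of like level. Other scalings and filters called between 1564 and 1937 genes. The fold changes moved less: SNHG1 lay between 1.33 and 1.44 over the alternatives, GAS5 between 0.37 and 0.46, ZFAS1 between 0.37 and 0.45, SNHG8 between 0.25 and 0.42, and SNHG5 between 0.19 and 0.29, while SNHG12 lay on both sides of 0, between −0.19 and 0.15. The median of the members was 0.13 without shUCP2 replicate 2 and 0.22 without replicate 3, as values with no test, since 1 library is then set against 1. No paired analysis was possible because the groups share no replicate number.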
